A study of Mus musculus with 4 samples.

Results

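The 10 genes followed here belong to the trophectoderm transcription factor network, and they were read on 4 expression arrays of mouse embryonic stem cells with and without depletion of Chd4. The members were Tfap2c, Tfap2a, Cdx2, Eomes, Elf5, Gata2, Gata3, Tead4, Hand1 and Ets2. Every probe set that the platform annotation assigns to a single member was taken, which gave 22 of the 45037 probe sets that are not array controls. No probe set named a member together with another gene. The cells were J1 embryonic stem cells of the inducible RNAi line Chd4i-1, in which doxycycline switches on an RNAi construct against Chd4, the remodelling ATPase of the NuRD complex. The Chd4 RNAi group (n = 2 arrays) was given 5 ng/ml doxycycline and harvested after 3 days, and the control group (n = 2) was the same line without the drug. Both groups were grown on gelatin with 15% fetal bovine serum and with 1000 U/ml leukaemia inhibitory factor, which holds these cells undifferentiated. A single line was used, and doxycycline was given to one group alone. The effect of the drug, of RNAi as such and of Chd4 loss cannot be told apart.

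The trophectoderm is the outer cell layer of the blastocyst, and its descendants form the trophoblast of the placenta. Embryonic stem cells come from the inner cell mass and are known to keep most of this network low. In the embryo Tead4, with the Hippo coactivator Yap1, switches on Cdx2 and Gata3 in the outer cells. Eomes, Elf5, Ets2 and Tfap2c then hold trophoblast stem cells in their self-renewing state, and Gata2 and Hand1 act as these cells differentiate.

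Of the 10 genes 7 were tested, and of these 1 rose (Tfap2c) and 1 fell (Gata2). Over all genes tested at their brightest probe set, 10.3% were higher and 7.79% lower. The member counts are therefore not read as a property of the network. Tfap2c was 2.62-fold to 2.67-fold higher in Chd4 RNAi cells at its 3 probe sets. Gata2 was 2.68-fold lower at its brighter probe set, and its dimmer probe set was lower as well. The dimmer probe set was bright enough to be tested through its control signals only. Tfap2a, Eomes, Tead4, Hand1 and Ets2 had probe sets bright enough to be tested and none passed. Cdx2, Gata3 and Elf5 had signals under the array median on all 4 arrays and were not tested. In bulk RNA, fewer cells that express a gene and less RNA per cell cannot be told apart.

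Gata2 is the member that both fell and has a start in the RefSeq promoter table (build GRCm38.p6), so the 250 bases before its 2 annotated starts are shown. The first lies at chr6:88193641-88193890 and the second at chr6:88198414-88198663, both on the plus strand. Each was searched on both strands for short motifs of factors in the network: GCCNNNGGC for TFAP2 proteins, CATTCC for TEAD proteins, AGATAA for GATA proteins and AGGTGT for T-box proteins such as Eomes. Capitals mark the matches.
Gata2 first start: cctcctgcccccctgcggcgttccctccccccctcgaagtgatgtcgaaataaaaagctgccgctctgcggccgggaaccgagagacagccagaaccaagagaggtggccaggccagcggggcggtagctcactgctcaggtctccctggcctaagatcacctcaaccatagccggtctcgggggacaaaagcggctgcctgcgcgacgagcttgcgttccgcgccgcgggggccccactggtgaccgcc
Gata2 second start: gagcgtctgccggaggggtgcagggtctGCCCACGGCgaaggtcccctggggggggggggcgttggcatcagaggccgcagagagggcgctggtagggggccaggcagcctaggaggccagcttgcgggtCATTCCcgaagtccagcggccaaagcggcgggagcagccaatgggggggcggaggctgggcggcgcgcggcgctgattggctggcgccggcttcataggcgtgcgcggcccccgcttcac

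The second window held 1 TFAP2 match and 1 TEAD match, which do not overlap, and the first window held none of the 4 motifs. Among all 32851 promoter windows of this length, 13.7% held the TFAP2 letters, 12.6% the TEAD letters, 9.99% the GATA letters and 11.8% the T-box letters. The table held 10 windows for 7 of the members. Of these windows, 3 had the TFAP2 letters (in Gata3, Cdx2 and Gata2), 2 the TEAD letters (in Elf5 and Gata2), 1 the T-box letters (in Elf5) and 0 the GATA letters. A match describes the letters and does not show binding.

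The arrays were first checked against their labels. Chd4 was lower in both RNAi arrays at each of its 3 probe sets. Its signal was 48.5% of control at 1438476_a_at, 56.1% at 1436343_at and 65.0% at 1451295_a_at (limma adjusted p = 0.000244, 0.00232 and 0.00638). Calls for Chd4 ended without the intensity trend described below (adjusted p = 0.0835, 0.132 and 0.197) and with signals under the median raised to it (0.0726, 0.140 and 0.214). No Chd4 signal lay under the median, so the second setting changed only the variance modelled over all probe sets. All 12 defining genes of embryonic stem cells that were examined, among them Pou5f1, Sox2 and Nanog, stood above the median on every array, with signals of 2769 to 28361. Of them 3 rose, 3 fell and 6 did not pass, where 10.3% of all genes tested were higher and 7.79% lower, and these calls too ended without the trend.

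The deposited values are MAS5 signals, one per probe set and array, on a linear scale. The median signal of an array was 73.4 to 79.4, and a member was read as above or below the median of the same array. A probe set's signal also depends on its probes, so signals were not compared between genes. Of the 22 probe sets, 10 were above the median on all 4 arrays, and they covered 7 genes: Tfap2c, Tfap2a, Eomes, Gata2, Tead4, Hand1 and Ets2. Another 8 were at or under it on all arrays, among them all 5 of Cdx2, Elf5 and Gata3. The remaining 4 were above it on some arrays. Detection calls were not used here, so a signal under the median is not shown to be absent RNA.

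**Figure D1:**
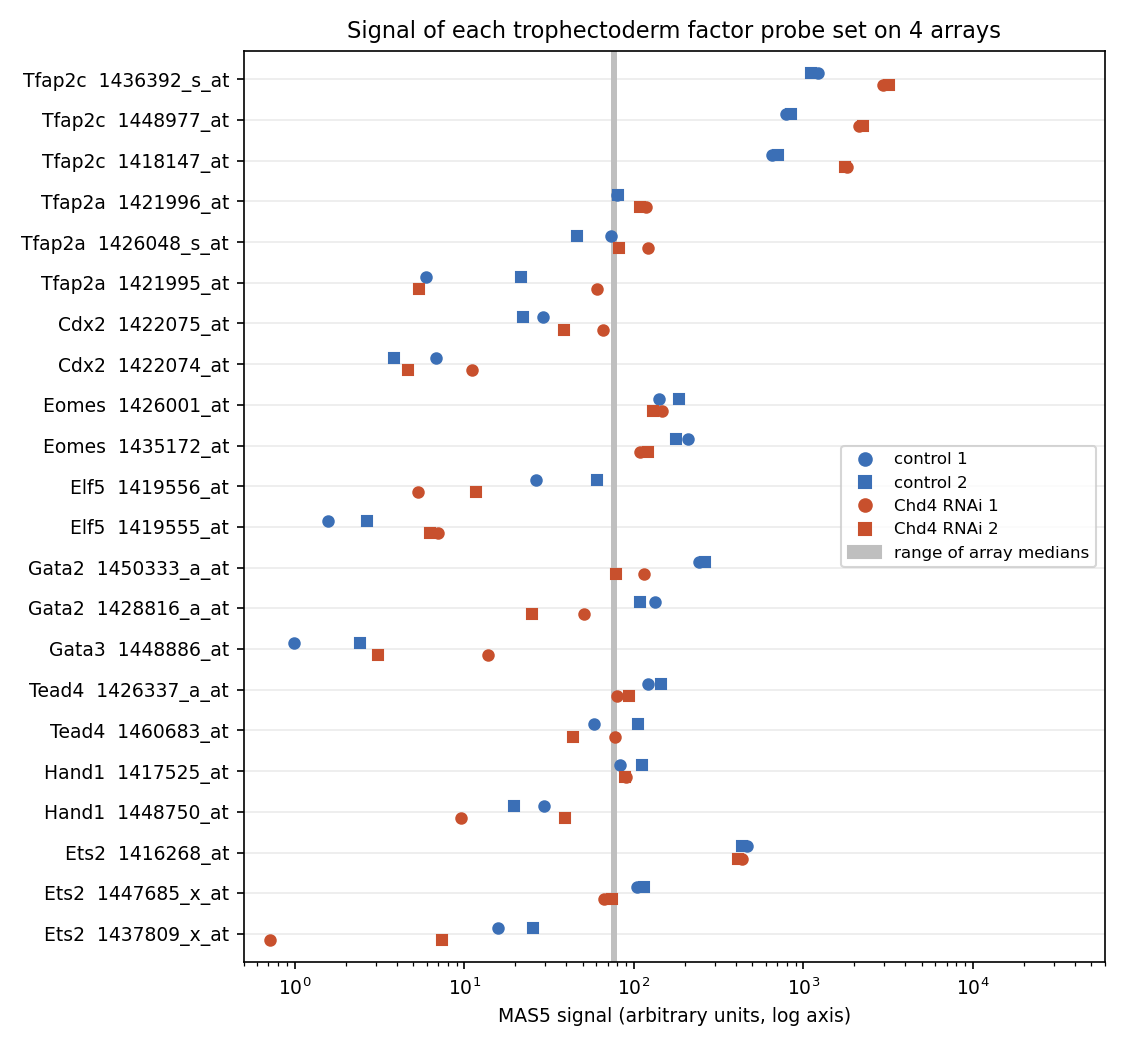
MAS5 signal (arbitrary units, log axis) of the 22 probe sets on each of the 4 arrays, with controls in blue and Chd4 RNAi in orange, circles for replicate 1 and squares for replicate 2. The grey band is the range of the 4 array medians, 73.4 to 79.4; the Tfap2c points lie far to its right with the groups apart, and all points of Cdx2, Elf5 and Gata3 lie to its left.

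Differences between the groups were tested with limma for probe sets in the top 60% by mean log2 signal, with Benjamini-Hochberg adjustment of the p-values across all 27022 of them. The filter passed 14 of the 22 member probe sets, from 7 genes. Of these 14, 3 were higher and 2 were lower at an adjusted p under 0.05. Over all probe sets tested, 7.46% were higher and 6.77% were lower. The 3 rises were all in Tfap2c and the 2 falls both in Gata2, and probe sets of a gene are repeat readings of it, not separate events. By gene, 1 of 7 was higher and 1 of 7 lower, where 10.3% and 7.79% of all genes tested were. The dimmer Gata2 probe set passed the filter through its control signals. The median log2 difference was -0.17 over the 14 and -0.012 over all tested.

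**Figure D2:**
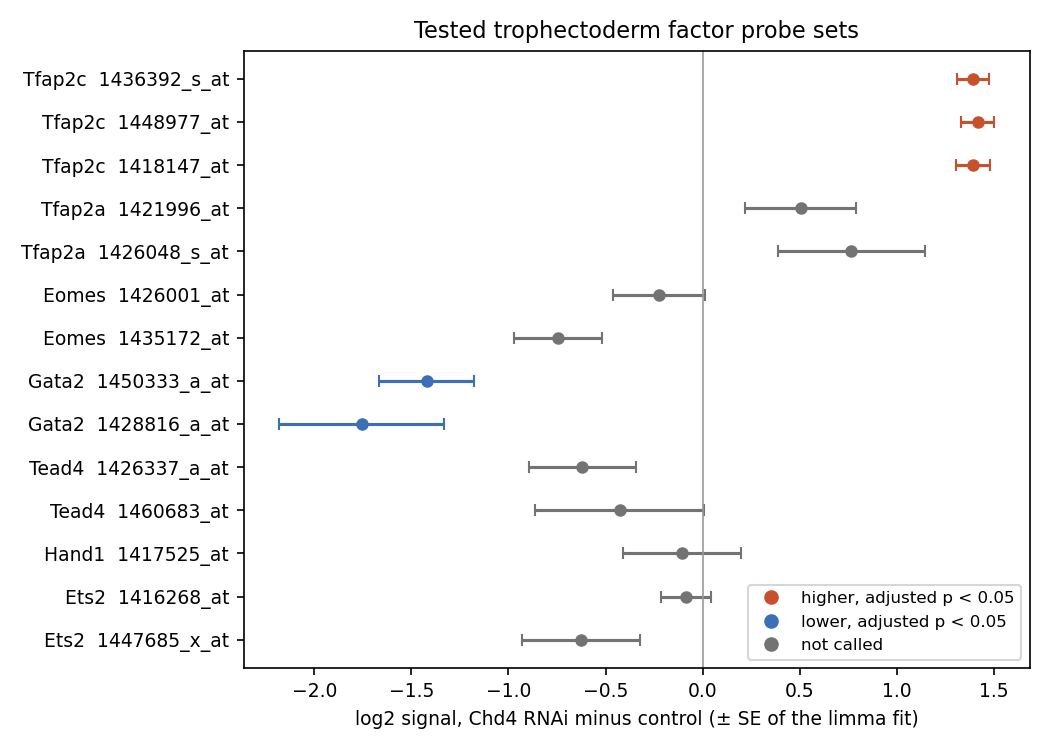
Log2 difference in signal, Chd4 RNAi minus control, for the 14 tested member probe sets, with bars of 1 standard error of the limma fit (n = 2 arrays per group). Tfap2c sits near 1.4 at 3 probe sets, Gata2 at -1.42 and -1.76, and the other 9 were not called.

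At the top of the cascade, Tead4, the DNA-binding partner of Yap1, was not called at either probe set. At 1426337_a_at the control arrays read 122 and 145 and the RNAi arrays 79.8 and 94.1. Both RNAi arrays were below both controls there, with a log2 difference of -0.62 ± 0.28 SE (adjusted p = 0.167). At 1460683_at the control arrays read 58.2 and 107 and the RNAi arrays 77.7 and 44.1, and the groups overlapped (-0.43 ± 0.43, adjusted p = 0.580). Without control replicate 2 the difference at this probe set was 0.0092.

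Cdx2, the homeobox factor that sets up trophectoderm identity, was dim in both groups. At 1422075_at the control arrays read 29.0 and 22.1 and the RNAi arrays 66.0 and 38.9. The RNAi arrays were the higher ones, but all 4 values lay under the array medians. At 1422074_at they were 6.81 and 3.83 against 11.1 and 4.65, and the groups overlapped. Gata3, the zinc finger factor that acts in parallel with Cdx2, has a single probe set, 1448886_at. The control arrays read 0.996 and 2.43 and the RNAi arrays 13.7 and 3.10. These lie far below the median, where MAS5 values are noisy, and no fold is given.

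Tfap2c encodes AP-2 gamma, which is needed in trophoblast and is also known in germ cells and pluripotent cells. At 1436392_s_at the control arrays read 1229 and 1115 and the RNAi arrays 2947 and 3199.8. At 1448977_at they were 794 and 842 against 2122 and 2247, and at 1418147_at 656 and 711 against 1821 and 1768. Both RNAi arrays lay above both controls at every probe set, and the spread within a group was small beside the gap. The log2 differences were 1.39 ± 0.082 SE, 1.42 ± 0.084 and 1.39 ± 0.090, with adjusted p of 3.04e-06, 3.28e-06 and 5.01e-06. Among all tested probe sets 293, 275 and 292 had a larger rise. When the variance was modelled without an intensity trend, no probe set on the array passed (0 of 27022 by limma, 5828 at an unadjusted p under 0.05), and the adjusted p for Tfap2c was 0.0618 to 0.0639. The _s_at suffix of 1436392_s_at marks probes that can match more than a single gene, and its difference was within 1 standard error of those of the other probe sets.

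Tfap2a, which encodes AP-2 alpha and is best known in neural crest and surface ectoderm, was near the median. At 1421996_at the control arrays read 79.2 and 80.8 and the RNAi arrays 118 and 109, without overlap (log2 difference 0.50 ± 0.29 SE, adjusted p = 0.284). At 1426048_s_at they were 73.8 and 46.3 against 121 and 81.9, also without overlap (0.77 ± 0.38, adjusted p = 0.211). At that probe set both RNAi arrays and no control array exceeded the array median. At the dimmest, 1421995_at, they were 5.98 and 21.5 against 60.6 and 5.43. Whether the response of Tfap2c differs from that of Tfap2a was not tested.

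Eomes, a T-box factor of trophoblast stem cells that also acts in early mesoderm and endoderm, gave differing readings. At 1435172_at the control arrays read 207 and 178 and the RNAi arrays 109 and 121. Both RNAi arrays were lower, by a log2 difference of -0.74 ± 0.23 SE (adjusted p = 0.0502), just outside the threshold. It passed with a pseudocount of 16 (-0.67, adjusted p = 0.0492) and when only the top 40% of probe sets were tested (adjusted p = 0.0345). It did not pass in the other settings run for it, with an adjusted p of 0.0506 after quantile normalization, 0.0681 with a replicate block, 0.0965 without a filter, 0.108 with the floor, 0.114 without the trend and 0.0592 to 0.263 with an array left out. At 1426001_at the signals were 142 and 184 against 147 and 129, with overlapping groups (-0.23 ± 0.24, adjusted p = 0.592).

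Elf5, an ETS factor known for being silenced by DNA methylation in embryonic stem cells, was under the median on every array at both probe sets. At 1419556_at the control arrays read 26.6 and 60.8 and the RNAi arrays 5.31 and 11.7. At 1419555_at they were 1.57 and 2.68 against 6.99 and 6.27, the opposite direction, and no change can be read from the pair.

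Ets2, an ETS factor downstream of growth factor signalling that supports trophoblast stem cells, was well above the median at 1416268_at. The control arrays read 464 and 435 and the RNAi arrays 434 and 413. The log2 difference was -0.085 ± 0.13 SE, with a 95% interval of -0.37 to 0.20 (adjusted p = 0.726). At 1447685_x_at the signals were 104 and 115 against 67.1 and 74.4, without overlap (-0.63 ± 0.30, adjusted p = 0.204). At 1437809_x_at they were 15.8 and 25.5 against 0.710 and 7.40. The _x_at suffix marks probe sets with probes that may bind unrelated transcripts.

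Gata2, a zinc finger factor of trophoblast giant cells and of blood progenitors, was lower at both probe sets. At 1450333_a_at the control arrays read 243 and 265 and the RNAi arrays 115 and 78.3. The RNAi arrays kept 37.4% of the control signal (log2 difference -1.42 ± 0.25 SE, 95% interval -1.96 to -0.88, adjusted p = 0.00309). At 1428816_a_at the control arrays read 134 and 109 and the RNAi arrays 50.8 and 25.1. There both controls were above the array median and both RNAi arrays under it. The mean of its RNAi signals, 37.9, lay under the filter's lowest mean signal of 42.4. It was thus tested through its control signals and is not separate support for the fall. The log2 difference was -1.76 ± 0.42 (adjusted p = 0.0180), and with signals under the overall median of 76.0 raised to it the fall was at least 1.59-fold. Among all tested probe sets 139 and 42 had a larger fall.

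All 4 signals of 1450333_a_at lay above the overall median of 76.0. Raising dimmer signals to that median thus left its values as they were and changed only the variance modelled over all probe sets. The call at 1450333_a_at ended without the intensity trend (limma adjusted p = 0.103) and when signals under the median were raised to it on all probe sets (-1.42, adjusted p = 0.111). That at 1428816_a_at ended in both of these settings too, as well as without control replicate 1 (-1.61, adjusted p = 0.125), without control replicate 2 (-1.91, adjusted p = 0.0555) and with no filter on dim probe sets (adjusted p = 0.0572).

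Hand1, a helix-loop-helix factor of trophoblast giant cells and of the heart, was not called. At 1417525_at the control arrays read 83.4 and 111 and the RNAi arrays 90.0 and 89.3. Both RNAi values lay between the controls (log2 difference -0.10 ± 0.30 SE, adjusted p = 0.867), and the difference was 0.10 without control replicate 2. At 1448750_at they were 29.4 and 19.7 against 9.61 and 39.2.

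**Figure D3:**
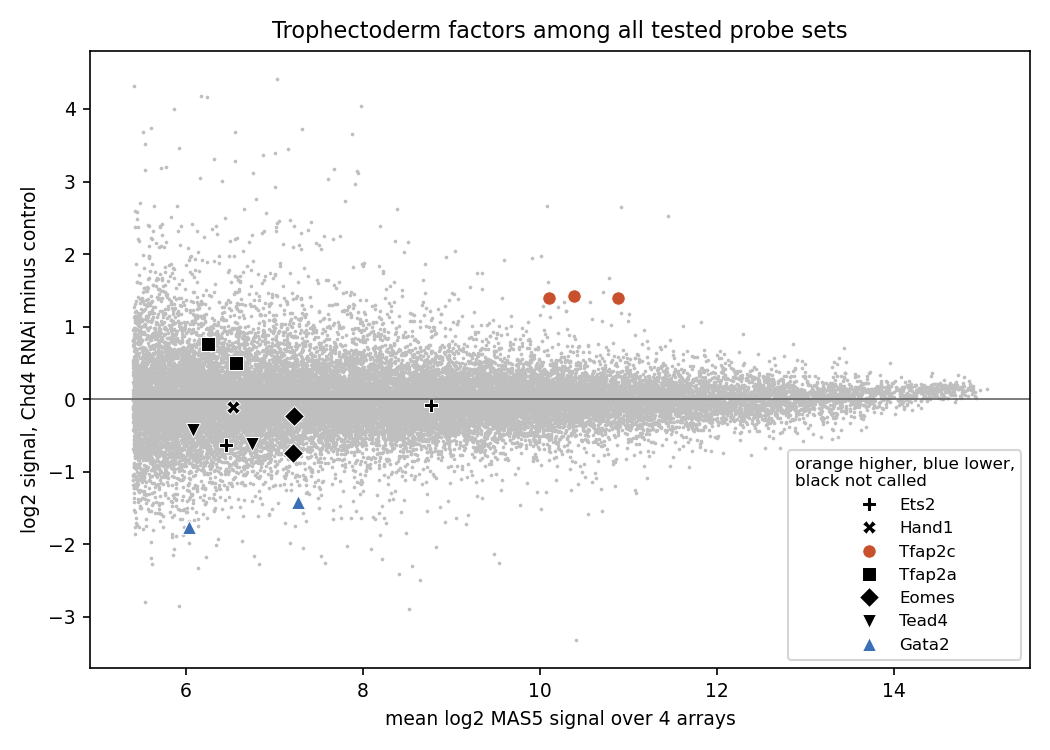
Mean log2 signal over the 4 arrays against the log2 difference, Chd4 RNAi minus control, for all 27022 tested probe sets (grey points) and the 14 tested member probe sets (large symbols by gene). The Tfap2c points lie at the upper edge of the cloud at their signal, the Gata2 points at its lower edge on the dim side, and the other symbols within it.

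None of the calls below passed without the intensity trend either. Raising signals under the median to it ended the calls of Lgals3, Phlda2, Cited2, Bhlhe40, Rbpj, Tead1, Foxd3, Tek, Pecam1, Amn, Lama1, Thy1 and Fbln2. Their adjusted p by limma was 0.0517 to 0.166 in that setting. Apart from Fbln2, these genes were above the median on all 4 arrays. Their values did not change in that setting, and only the variance modelled over all probe sets did. In the list of trophectoderm and trophoblast stem cell genes below, 3 rises and 1 fall were left. Krt18 and Plet1 were among the rises left, and Atp1b1 was the fall. Besides Lgals3, the calls of Bmp4 and of most of Krt7, Krt19, Id2 and Klf5 thus ended there too. Genes around the network were described from lists, with the brightest probe set for each gene. Over all 12615 genes with such a probe set tested, 10.3% were higher and 7.79% were lower. Of 18 tested genes of trophectoderm and trophoblast stem cells other than the factors above, 7 rose, 2 fell and 9 were not called. Their median log2 difference was 0.29. Lists of other tissues described below had medians of 0.81 (mesoderm, 4 genes tested), 0.79 (fibroblasts, 4), 0.44 (blood and endothelium, 8), 0.36 (neural crest and surface ectoderm, 6) and 0.15 (primitive endoderm, 8). The filter used the mean over all 4 arrays, so a dim gene could pass it through the group where it was high. Medians of lists with dim genes, mesoderm above all, are therefore not ranked against 0.29. In the controls 13 of the 19 genes on the array were already above the median, so the list does not mark trophoblast alone.

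The rises included 3 of the 4 keratin genes on the list, which belong to simple epithelium. Krt18 went from signals of 558 and 538 in the controls to 1194 and 1243 (log2 difference 1.15 ± 0.097 SE, adjusted p = 3.2e-05). Krt19 rose 2.13-fold (adjusted p = 0.00219), and Krt7, dim in the controls, at least 3.06-fold (adjusted p = 0.000975). Krt8, the usual filament partner of Krt18, did not pass (log2 difference 0.14 ± 0.11 SE, adjusted p = 0.426), and its 2 other tested probe sets had negative differences. Lgals3, which encodes galectin 3, rose 2.73-fold (adjusted p = 8.34e-05). Plet1, a surface protein gene of trophoblast progenitors, went from 65.4 and 79.1 to 298 and 318, a rise of at least 3.97-fold (adjusted p = 0.000164).

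Id2, an inhibitor of helix-loop-helix factors that is high in trophectoderm, rose 1.51-fold (adjusted p = 0.00246). Klf5, a zinc finger factor used by both trophectoderm and pluripotent cells, rose 1.33-fold (adjusted p = 0.00356). The calls of Plet1, Id2 and Klf5 ended when the probe sets of each gene were averaged (log2 1.94, 0.55 and 0.17, adjusted p = 0.0616, 0.0594 and 0.329). The falls were in Atp1b1, a sodium pump subunit gene used in blastocoel formation (1.35-fold, adjusted p = 0.000447), and Bmp4, a growth factor gene (1.34-fold, adjusted p = 0.00876). Bmp4 no longer passed without control replicate 1 (log2 -0.35, adjusted p = 0.0608).

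Among genes of differentiated trophoblast, 14 of 20 listed had a probe set of their own. Of these, 6 were tested, of which 3 fell and 0 rose by limma, with 3 and 0 also at an unadjusted p under 0.05. Over all genes tested 7.79% were lower and 10.3% higher. The 3 that fell were above the median in both controls, so they do not mark differentiated trophoblast alone. All 8 untested genes, Tpbpa, Ctsq and Pparg among them, were under the median on every array. Phlda2, an imprinted regulator of placental growth, fell 2.01-fold and Cited2, a transcriptional coregulator gene, 1.64-fold (adjusted p = 5.7e-05 and 0.000546). Bhlhe40, a helix-loop-helix repressor gene, fell 1.34-fold (adjusted p = 0.0270). Its call ended without control replicate 1, control replicate 2 or Chd4 RNAi replicate 2 (adjusted p = 0.0574, 0.125 and 0.123, log2 -0.47, -0.39 and -0.31).

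Upstream inputs were tested for 15 genes of the Hippo and Notch pathways, and all 15 were above the median on every array. Rbpj, the DNA-binding effector of Notch, was the 1 gene called at its brightest probe set. Over all genes tested 10.3% were higher and 7.79% lower, so the count does not set these pathways apart. Rbpj rose 1.29-fold from 3741 and 3874 to 4754 and 5057 (limma adjusted p = 0.00280). Its 2 other tested probe sets were called in the same direction. The other 14 did not pass at their brightest probe set. Dimmer probe sets were called for the coactivator Wwtr1 (-0.52, adjusted p = 0.0448) and the kinase Lats2 (1.61, adjusted p = 0.0422). At the brightest probe sets the coactivator genes Yap1 and Wwtr1 had log2 differences of -0.11 ± 0.067 SE and -0.17 ± 0.093 (adjusted p = 0.301 and 0.252), and Nf2, an upstream activator of Hippo kinases, of -0.30 ± 0.11 (adjusted p = 0.0952). The angiomotin genes Amot and Amotl2, which hold Yap1 outside the nucleus, had differences of 0.57 ± 0.28 and -0.23 ± 0.11 (adjusted p = 0.207 and 0.212). Amot passed without control replicate 2 (1.08, adjusted p = 0.0111).

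Of 21 relatives from the factors' own families, 9 were tested. Tead1 was the relative that passed, where 10.3% of all genes tested were higher. It rose 1.59-fold from 2310.4 and 2313 to 3887 and 3476 (log2 difference 0.67 ± 0.072 SE, adjusted p = 0.000159). Its 1 other tested probe set had the same direction and was not called. Tead2 and Tead3 did not pass (-0.28 ± 0.12 and 0.31 ± 0.36, adjusted p = 0.164 and 0.631). Tead2 passed as lower without control replicate 2 (-0.45, adjusted p = 0.0388), and Tead3 had a difference of -0.20 without Chd4 RNAi replicate 1. Tead4 thus had a negative difference at both probe sets while Tead1 rose, but the difference between them was not tested. Gata1 was at 0.50 ± 0.31 (adjusted p = 0.333). The remaining AP-2 genes Tfap2b, Tfap2d and Tfap2e and the caudal genes Cdx1 and Cdx4 were under the median on all 4 arrays.

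**Figure D4:**
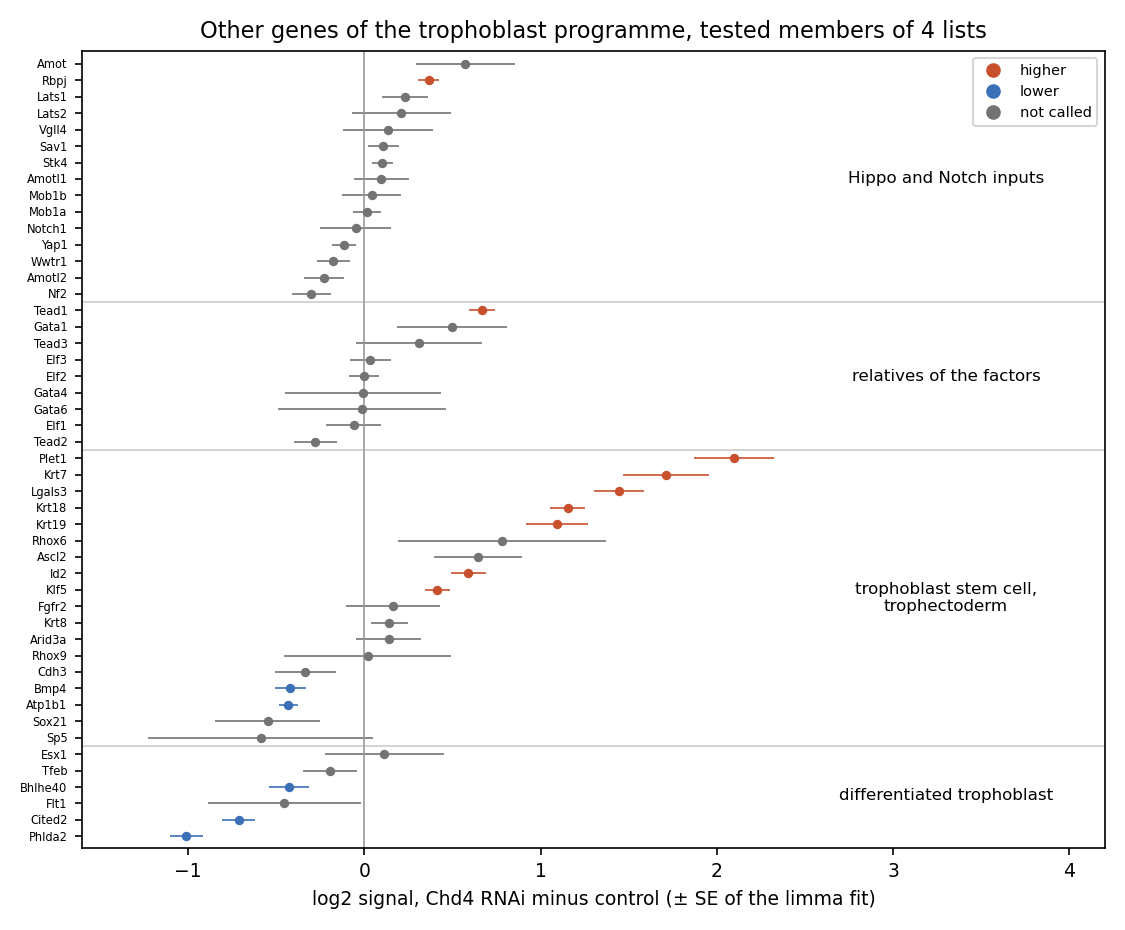
Log2 difference, Chd4 RNAi minus control, with bars of 1 standard error (limma, n = 2 arrays per group), for the 48 tested genes of 4 lists around the trophectoderm factors. Orange marks genes higher and blue genes lower at an adjusted p under 0.05. The trophoblast stem cell and trophectoderm list has 7 orange points among 18 genes, and the 3 calls in differentiated trophoblast are all blue. Over all genes tested 10.3% were higher and 7.79% lower. Lists of other tissues are not plotted. In them 2 of 4 (fibroblasts), 2 of 8 (blood and endothelium), 1 of 6 (neural crest and surface ectoderm), 1 of 8 (primitive endoderm) and 0 of 4 (mesoderm) were higher.

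Several members also act in other tissues, so markers of those were read in the same way. Among 4 tested genes of early mesoderm 0 passed by limma, and 1 did at an unadjusted p under 0.05. The summed signal of the 11 mesoderm genes on the array was 206 to 389 in the controls and 456 to 489 in the RNAi arrays, and Mixl1, Kdr and Evx1 were under the median throughout. For neural crest and surface ectoderm 1 of 6 rose (Grhl2, 2.59-fold, adjusted p = 4.04e-05) and 1 fell (Foxd3, 2.26-fold, adjusted p = 0.000435). The Grhl2 call ended when probe sets were averaged (log2 0.34, adjusted p = 0.436). Sums were 1582 to 1609 against 2006 to 2105, and Sox10, Krt14 and Trp63 were under the median throughout. The 10 genes that were not called summed to 802 to 822 against 1021 to 1047.

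For blood and endothelium, where Gata2 acts, 2 of 8 rose and none of the others passed, by limma or at an unadjusted p under 0.05: Tek by 2.19-fold and Pecam1 by 1.56-fold (adjusted p = 0.00153 and 0.00550). Sums were 1119 to 1185 against 1611 to 1653. The 10 genes that were not called summed to 446 to 564 against 502 to 547, with Ptprc and Fli1 under the median throughout. For primitive endoderm 1 of 8 rose (Amn, 1.67-fold, adjusted p = 0.0384) and 1 fell (Lama1, 1.46-fold, adjusted p = 0.0378). The sums were 954 to 995 against 1024 to 1072, with Sox17 and Foxa2 under the median throughout. The 10 genes that were not called summed to 449 to 483 against 545 to 593. The calls of Amn and Lama1 ended when either control array or Chd4 RNAi replicate 2 was left out. Both also ended with no filter (Amn 0.0735, Lama1 0.0608), and Amn with a replicate block (adjusted p = 0.0511).

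For fibroblasts 2 of 4 rose and the other two did not pass: Thy1 by 3.06-fold (adjusted p = 7e-05) and Fbln2, from 60.3 and 34.9 to 107 and 122 (adjusted p = 0.0402). The call of Fbln2 ended when control replicate 2 or either RNAi array was left out (adjusted p of 0.0724 to 0.182), with a replicate block (0.0513), with no filter (0.105) and with the floor (0.0940). The summed signal of the 10 genes was 578 to 588 in the controls and 949.7 to 1007 in the RNAi arrays. Without the 2 called genes it was 342 to 353 against 281 to 300.1, and Col1a1, Col3a1 and Dcn were under the median throughout. The part of such cells in the changes of Tfap2c and Gata2 was not tested.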

How the data were processed

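RNA of 2 control and 2 Chd4 RNAi samples, grouped by sample title, was hybridised to Affymetrix mouse arrays of a single colour. The series text calls the samples of a group biological duplicates. The authors deposited intensity values, MAS5 signals on a linear scale, per the submitters' processing notes; its version and scaling target are not given in the sources used here. All arrays had a similar trimmed mean (2% from each tail), 496.5 to 497.2. No pseudocount was used before log2.

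Gene names came from the platform annotation of probe sets: 34945 had 1 gene symbol, 932 several and 9160 none, and 64 were array controls. The limma 3.58.1 fit (R 4.3.3) used lmFit and then eBayes, with the prior variance following mean signal (the intensity trend; degrees of freedom 9.24 prior, 2 residual), on 27022 probe sets, mean signal 42.4 or more. Tests were two-sided, with Benjamini-Hochberg adjustment over all tested and a threshold of 0.05. The fit was tested on simulated data. It recovered 31.3% of the 1.5-fold, 47.8% of the 2-fold and 74.2% of the 4-fold changes put in. These were put into 67, 67 and 66 of 27022 probe sets, far fewer than the 3847 called in the data. Adjustment for many tests is stricter with so few changes, so these rates do not measure the power of the fit to the data. A probe set that was not called is not shown to be unchanged. The number of arrays limits the precision.

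The genes named were all members, Chd4 and up to 4 genes per list with the smallest p; the other genes, which mark a list's level or did not pass, and all called genes of the trophoblast stem cell list were chosen after their values were seen. Of 147 list entries 138 were on the array; Gata1, Gata4, Gata6 and Pdgfra are each in 2 lists. The members and lists were chosen with earlier results of these data known. Other settings tried were a pseudocount of 16, quantile normalization, no filter or a stricter one, no intensity trend, the brightest or averaged probe set of a gene, a floor at the median signal, a replicate block and leaving out each array. Promoter sequences are from RefSeq.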

Additional observations from a re-analysis of the deposited data

How the results depend on the processing

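Among member probe sets, 3 were higher and 2 lower. Without the intensity trend the counts were 0 and 0, and limma called 0 of 27022 probe sets (lowest adjusted p = 0.0594, 5828 at an unadjusted p under 0.05). With 1 probe set per gene, the brightest or the average, they were 1 and 1, by construction from fewer probe sets. With no filter 1 was lower, and with signals raised to the median 0 were lower. That floor left probe sets with no variance, which bears on its 490 calls. The prior degrees of freedom were 0.803 with the floor and 9.24 in the main fit. With the floor, calls also ended for probe sets that had no signal raised. Leaving out arrays gave 1 to 2 lower. The 3847 calls over all probe sets became 1380 for averaged genes and 2430 to 3535 without an array. The trophoblast stem cell and trophectoderm counts of 7 higher and 2 lower became 0 and 0 without the trend, 4 higher for averaged genes, 3 and 1 with the floor, and 1 to 2 lower without an array. Where no construction is named, the cause was not tested. With each array left out in turn, the log2 difference ranged from -0.86 to 0.0092 for Tead4 at 1460683_at, from -0.31 to 0.10 for Hand1 at 1417525_at and from -0.20 to 0.83 for Tead3, so the sign turned in each.

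Same-numbered arrays of the groups did not deviate together (r = -0.0019 over probe sets, not independent replicates), so the numbers were not taken as pairs. With a replicate block 3635 probe sets were called and the member counts were 3 and 2; the Amn and Fbln2 calls ended. Alternatives for the lists and for the counts above the median were chosen after seeing the data. The small number of arrays and the noise of dim MAS5 signals limit what can be read for Cdx2, Gata3, Elf5 and the dimmer probe sets.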
